A study of Mus musculus with 16 samples.

Results

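This account covers 9 genes of fucosylation and of the Sd(a) glycan in the mouse distal colon, out of 21442 genes counted. They were chosen by name: Gmds and Tsta3, which make GDP-fucose; Slc35c1, which carries it into the Golgi; the fucosyltransferases Fut1, Fut2, Fut4 and Fut8; and the N-acetylgalactosaminyltransferases B4galnt2 and B4galnt3. RNA was sequenced from epithelial cells of RedMUC298trTg mice of 6-8 weeks, all of which carried that reporter transgene. SpdefKO_GC and WT_GC were mCherry-positive goblet cells (GC) from RedMUC298trTg_SpdefKO and RedMUC298trTg mice. SpdefKO_EC and WT_EC were the mCherry-negative cells of those genotypes, labelled colonocytes (EC). Each of the 4 groups had 4 libraries, referred to by group and the number in their label. The promoter of the reporter is not stated in the labels, and RNA of the GC and EC fractions was purified on different columns, so column and fraction cannot be told apart.

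Fucose reaches glycans from the activated sugar GDP-fucose, which cells make from GDP-mannose by the dehydratase Gmds and then the epimerase-reductase Tsta3 (also called Gfus), and which Slc35c1 moves into the Golgi. There Fut1 and Fut2 cap galactose to form the H antigen, the precursor of the A and B blood groups; Fut2, the secretor enzyme, does this in secretory epithelia of the gut. Fut4 fucosylates inner N-acetylglucosamine of Lewis x type chains, and Fut8 adds the core fucose of N-glycans. B4galnt2 caps sialylated galactose to form the Sd(a) (Cad) epitope of colonic glycans, and B4galnt3 adds N-acetylgalactosamine to N-acetylglucosamine to form the LacdiNAc unit.

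The promoter windows of 3 members are shown because these genes stand for the different patterns described next: B4galnt2 was the member most changed by genotype in goblet cells, Fut4 fell in goblet cells and is a gene of 1 exon, and Fut1 was the member with the widest gap between fractions. The sequences are from RefSeq on GRCm38.p6 and run 5′ to 3′ on the gene's strand, from 250 bases before the start that RefSeq annotates to 50 bases after it. Capitals mark GGATGT or its reverse complement, a motif read on both strands. The motif contains GGAT, a form of the core bound by ETS factors, the family to which Spdef belongs.
B4galnt2 chr11:95914822-95915121 (minus strand): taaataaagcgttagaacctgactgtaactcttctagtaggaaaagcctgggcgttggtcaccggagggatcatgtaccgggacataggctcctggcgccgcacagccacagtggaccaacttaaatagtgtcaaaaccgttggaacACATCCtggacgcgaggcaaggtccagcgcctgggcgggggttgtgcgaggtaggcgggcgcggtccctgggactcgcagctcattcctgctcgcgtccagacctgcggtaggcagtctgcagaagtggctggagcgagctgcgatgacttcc
Fut4 chr9:14752073-14752372 (minus strand): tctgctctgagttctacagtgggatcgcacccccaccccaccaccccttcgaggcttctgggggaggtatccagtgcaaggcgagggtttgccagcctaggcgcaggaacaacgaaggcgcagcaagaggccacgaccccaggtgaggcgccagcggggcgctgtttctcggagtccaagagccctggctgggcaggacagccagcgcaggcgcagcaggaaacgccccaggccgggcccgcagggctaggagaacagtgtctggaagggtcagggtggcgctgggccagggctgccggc
Fut1 chr7:45617356-45617655 (plus strand): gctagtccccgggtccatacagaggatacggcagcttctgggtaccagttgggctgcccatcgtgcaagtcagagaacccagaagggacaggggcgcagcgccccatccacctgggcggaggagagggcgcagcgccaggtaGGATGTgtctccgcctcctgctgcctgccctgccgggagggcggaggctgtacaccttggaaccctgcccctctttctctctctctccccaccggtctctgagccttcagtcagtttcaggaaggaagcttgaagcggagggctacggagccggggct
GGATGT lay 103 bases before the RefSeq start of B4galnt2, as its reverse complement, and 108 bases before the RefSeq start of Fut1. The gene spans given with the results are from GENCODE, which places starts differently: the windows of Fut1 and Fut4 lie wholly inside their GENCODE genes, and that of B4galnt2 reaches into its gene. It was in no window of Fut4, Fut8, Gmds, Slc35c1 or B4galnt3, and windows were at hand for 7 of the 9 members; none was for Fut2 and Tsta3. Of all 32851 windows of this length, 11.1% held GGATGT and 79.6% held GGAT. A match describes these letters and shows no binding.

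Gene counts summed to 10085637–17111987 per library, and all 9 members passed the filter on low counts that left 12915 genes for testing. Levels are in CPM, the reads of a gene per mega-read of TMM-scaled gene counts, and a gene is said to have risen, fallen or changed where the Benjamini-Hochberg adjusted p of the edgeR quasi-likelihood test over all tested genes was under 0.05. Spdef, the targeted gene, had 368, 373, 446 and 294 CPM in SpdefKO_GC and 279.8, 306, 281 and 315 CPM in WT_GC. It averaged 2.15 ± 0.988 CPM in SpdefKO_EC and 2.69 ± 0.808 CPM in WT_EC (SD, n = 4 each). Spdef RNA was thus not lower in the goblet cell libraries labelled SpdefKO (log2 0.33 ± 0.14 SE, adjusted p = 0.116), so the count gives no check of the genotype label, which is used here as given: SpdefKO means libraries so labelled, and every direction between genotypes rests on that label. The sequence deleted is not stated in the labels. Nothing in the labels says that a group's libraries were from separate mice, and p-values may therefore reflect technical spread alone.

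Goblet cell markers summed to 52254.8–64451.6 CPM per library in SpdefKO_GC and 46356.5–52847 CPM in WT_GC, against 501–546 CPM in SpdefKO_EC and 537–717 CPM in WT_EC, as the labels of the fractions have it. Absorptive colonocyte markers summed to 868–1090.1 CPM in SpdefKO_GC and 467–599 CPM in WT_GC, against 8529–10655 CPM in SpdefKO_EC and 9237–10368 CPM in WT_EC, and 6 of the 9 tested rose in SpdefKO_GC relative to WT_GC. Enteroendocrine markers summed to 216–327 CPM in SpdefKO_GC and 90.6–128 CPM in WT_GC, and to 251–419 CPM in SpdefKO_EC and 562–756 CPM in WT_EC, with 10 of 11 higher in SpdefKO_GC than in WT_GC. Interferon response genes summed to 123–365 CPM in SpdefKO_GC and 91.1–99.99 CPM in WT_GC, with 6 of 10 higher and 1 lower. Immune markers summed to 6.25–8.34 CPM in SpdefKO_GC and 3.68–4.45 CPM in WT_GC, with 2 of 4 tested higher, and stromal markers to 7.77–10.1 CPM in SpdefKO_GC and 2.54–3.20 CPM in WT_GC, with 1 of 3 tested higher. Stem and cycling markers summed to 1127–1723 CPM in SpdefKO_GC and 774–1051 CPM in WT_GC. Of the 7, the cycling marker Mki67 was higher (log2 0.80 ± 0.13, adjusted p = 0.000337). The stem marker Ascl2 was lower, at 2.30 CPM in SpdefKO_GC and 3.73 CPM in WT_GC (log2 -0.69 ± 0.21, adjusted p = 0.0270). The others were not called. Lgr5 and Smoc2 averaged 6.63 and 53.1 CPM in SpdefKO_GC against 8.73 and 59.8 CPM in WT_GC, while Axin2, Top2a and Ccnb1 were higher on average. Every SpdefKO_GC library lay above every WT_GC library in the summed absorptive, enteroendocrine, interferon, immune, stromal, and stem and cycling lists. The sums of goblet and tuft cell markers overlapped. Single genes weighed heavily in some sums. In SpdefKO_GC and WT_GC, Guca2a of the absorptive list averaged 545 and 255 CPM, Vim of the stromal list 6.93 and 1.65 CPM, and Mki67 816 and 470 CPM. Of the immune list, Itgam averaged 4.35 and 1.79 CPM in these groups and Ptprc 1.49 and 1.60 CPM. Beside these marker counts, 10.4% of all tested genes were higher in SpdefKO_GC than in WT_GC and 11% were lower. The tuft marker Sh2d6 was not among the genes counted, and no counted marker of these lists was at 0 in a whole group. The part of these cell types in the results on SpdefKO_GC was not tested. In these bulk samples, fewer cells of a type and less RNA per cell cannot be told apart.

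In goblet cells, Tsta3 and B4galnt2 fell to about the same extent in SpdefKO relative to WT, Fut4 and Fut8 fell less, and the H antigen enzymes, Gmds and Slc35c1 did not pass the test. In all, 4 of the 9 members fell and 0 rose, against 11% of all tested genes that fell, 10.4% that rose and 21.4% that changed. The 4 that fell were also the 4 whose libraries did not overlap between groups, against 13.6% of tested genes without overlap and lower, 11.6% without overlap and higher and 25.1% in all. With DESeq2 and with limma-voom 0 members rose and 4 fell. Over all 12915 tested genes 1615 rose and 1459 fell with DESeq2, and 1301 rose and 1500 fell with limma-voom. At an unadjusted p under 0.05 with edgeR 5 members were lower and 0 higher, and no share over all genes was taken at that rule. The median log2 difference was -0.29 over the 9 members and 0.00 over all tested genes.

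Among the genes of GDP-fucose supply, Tsta3 (15:75924676-75929832, minus strand), the enzyme of the last step, had 96.5, 102, 94.1 and 89.4 CPM in SpdefKO_GC and 178, 194, 197 and 184 CPM in WT_GC. All 4 SpdefKO_GC libraries lay below all 4 of WT_GC, and the spread within each group was small beside the gap. Tsta3 averaged 95.6 ± 5.43 CPM in SpdefKO_GC and 188 ± 9.03 CPM in WT_GC (SD, n = 4 each), a 1.97-fold fall (log2 -0.98 ± 0.07, adjusted p = 6.88e-09). Gmds (13:31819579-32338740, minus strand), the enzyme of the step before it, had 528, 456, 509 and 473 CPM in SpdefKO_GC and 496, 504, 502 and 517 CPM in WT_GC. These groups overlapped, with the SpdefKO_GC libraries on both sides of WT_GC, and the difference was log2 -0.04 ± 0.08 (adjusted p = 0.778). As a description with no test, chosen after the values were seen, the per-kilobase ratio of Tsta3 to Gmds within a library was 0.211–0.259 in SpdefKO_GC and 0.411–0.453 in WT_GC, against 0.286–0.341 in SpdefKO_EC and 0.310–0.374 in WT_EC. The ratio thus stood lowest in SpdefKO_GC and highest in WT_GC, with the EC groups between them. Slc35c1 (2:92452764-92460538, minus strand), the Golgi transporter, averaged 177 ± 10.4 CPM in SpdefKO_GC and 160.1 ± 12.6 CPM in WT_GC (log2 0.15 ± 0.07, adjusted p = 0.156), with overlapping libraries.

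**Figure D1:**
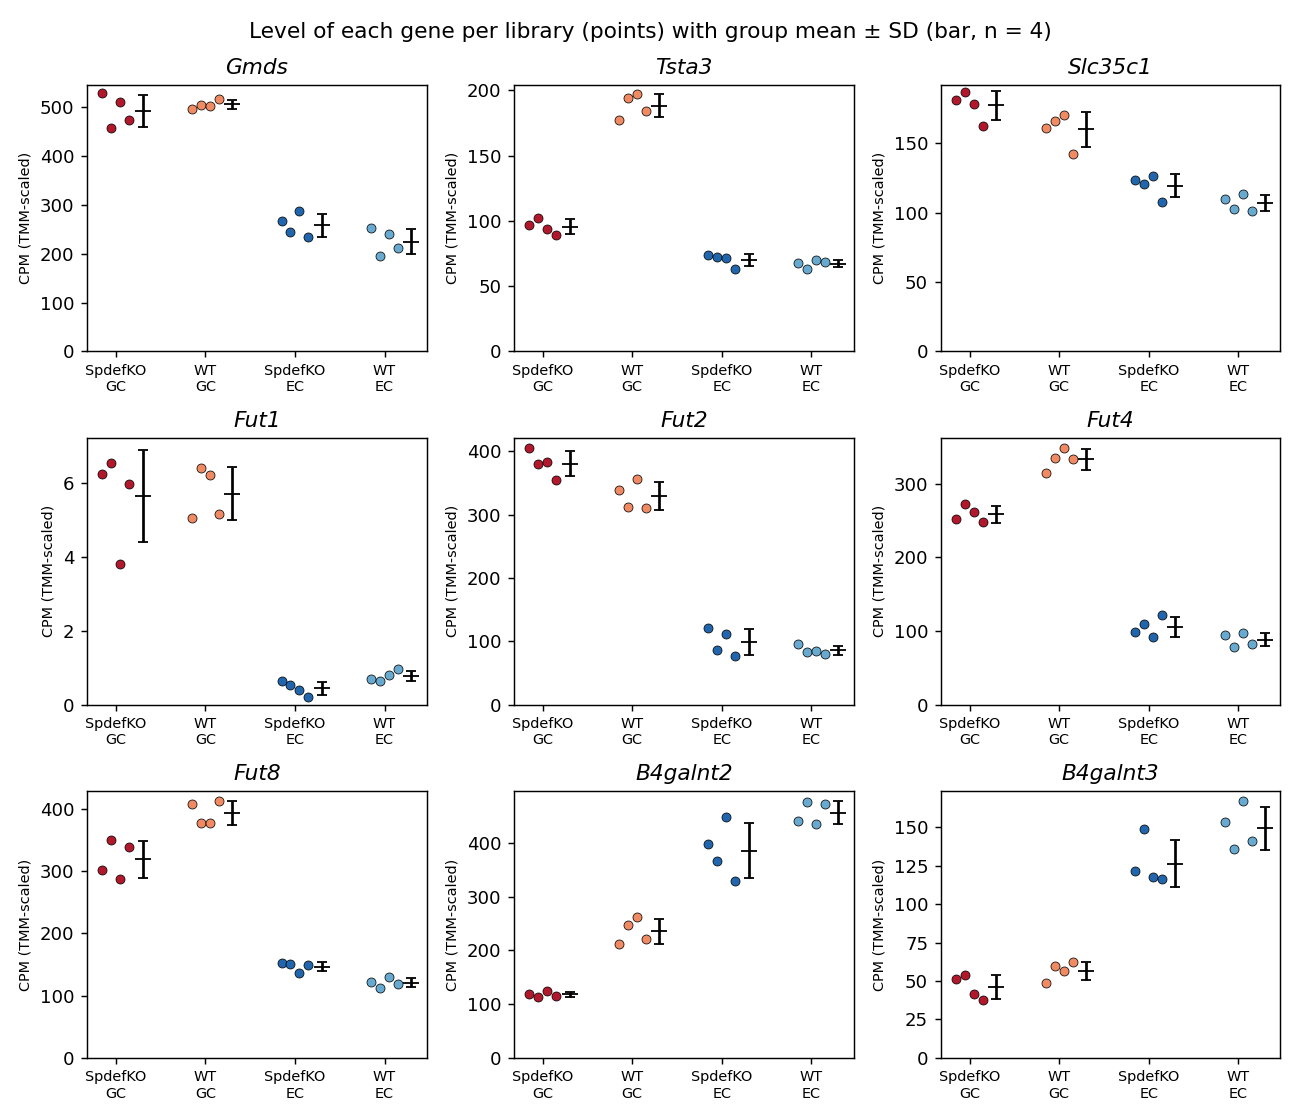
CPM of the 9 members in each of the 16 libraries, with a panel per gene; points are libraries and bars the mean ± SD of 4. Tsta3 and B4galnt2 of SpdefKO_GC sit below every WT_GC library, at 89.4–102 and 114–125 CPM against 178–197 and 212–262 CPM.

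Of the fucosyltransferases, Fut4 (9:14748320-14752393, minus strand) had 252, 273, 261 and 248 CPM in SpdefKO_GC and 314, 335, 349 and 334 CPM in WT_GC. The groups did not overlap, and Fut4 fell 1.29-fold (log2 -0.37 ± 0.08, adjusted p = 0.00449). Fut8 (12:77238125-77476338, plus strand) had 302, 350.4, 287 and 338 CPM in SpdefKO_GC and 408, 378, 377 and 413 CPM in WT_GC. It fell 1.23-fold, again with no overlap (log2 -0.30 ± 0.07, adjusted p = 0.00552). Fut2 (7:45648591-45666394, minus strand), the secretor gene, had 405, 379.6, 384 and 355 CPM in SpdefKO_GC and 339, 311, 356 and 311 CPM in WT_GC. Its lowest SpdefKO_GC library lay just under the highest of WT_GC, and the difference of log2 0.21 ± 0.11 did not pass the test (adjusted p = 0.183). Fut1 (7:45617289-45621059, plus strand), the other H antigen enzyme, was low, at 3.81–6.53 CPM in SpdefKO_GC and 5.06–6.41 CPM in WT_GC (log2 -0.02 ± 0.18, adjusted p = 0.949).

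Of the terminal N-acetylgalactosaminyltransferases, B4galnt2 (11:95865943-95914891, minus strand) had 119, 114, 125 and 115 CPM in SpdefKO_GC and 212, 248, 262 and 220.2 CPM in WT_GC. The groups were far apart, and B4galnt2 averaged 118 ± 5.17 CPM in SpdefKO_GC and 235 ± 23.4 CPM in WT_GC (SD, n = 4 each), a 1.99-fold fall (log2 -0.996 ± 0.09, adjusted p = 2.01e-07). B4galnt2 was highest in the EC fraction. The summed absorptive colonocyte markers, given above, were higher in SpdefKO_GC than in WT_GC, and their part in this difference was not tested. B4galnt3 (6:120203073-120294559, minus strand) had 51.2, 54.2, 41.6 and 37.9 CPM in SpdefKO_GC and 48.4, 59.5, 56.7 and 62.3 CPM in WT_GC. These overlapped, and the difference of log2 -0.29 ± 0.12 did not pass the test (adjusted p = 0.0779). The 4 genes that fell kept adjusted p under 0.05 when any 1 of the 16 libraries was left out, with log2 differences of -1.005 to -0.93 for Tsta3, -1.04 to -0.94 for B4galnt2, -0.39 to -0.33 for Fut4 and -0.34 to -0.25 for Fut8. B4galnt3 passed the test without SpdefKO_GC library 5 (log2 -0.36, adjusted p = 0.0396) or WT_GC library 9 (log2 -0.36, adjusted p = 0.0444). Exons of B4galnt2, B4galnt3 and Fut8 overlap exons of Gm11534, D330020A13Rik and 9530018F02Rik on the opposite strand over 263, 169 and 75 bases in GENCODE, and the sources used here do not give the strand setting of the counting.

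**Figure D2:**
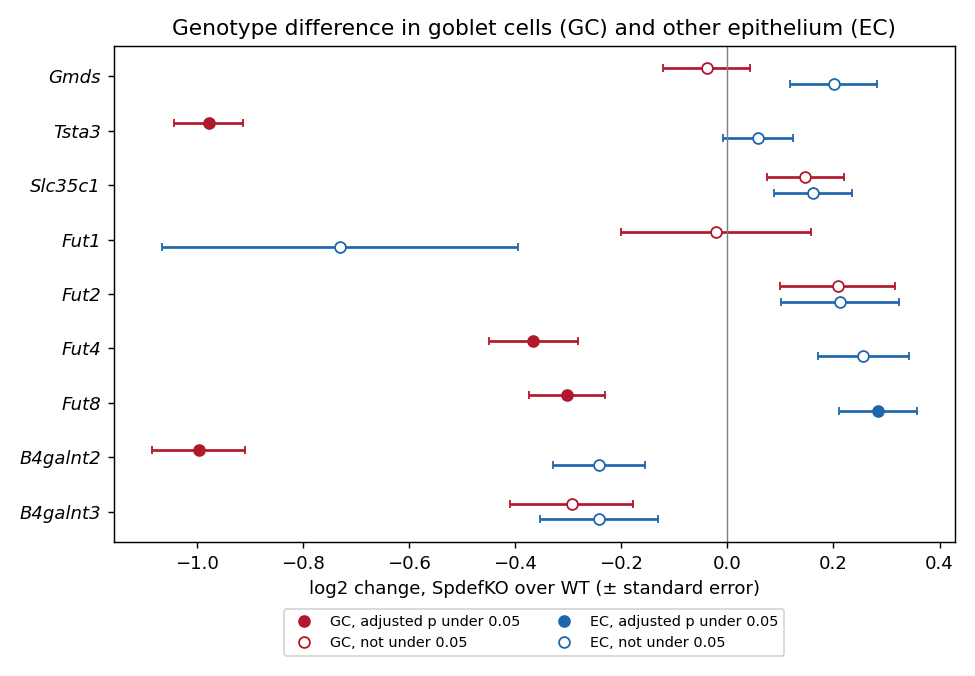
Log2 difference, SpdefKO over WT, of each member in GC and in EC; points are edgeR estimates and bars ± 1 SE, filled where adjusted p was under 0.05. In GC, Tsta3 and B4galnt2 sit near -1 (log2 -0.98 and -0.996), while in EC the members lie between -0.73 (Fut1) and 0.28 (Fut8).

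In the EC fraction Fut8 alone of the members passed the test between genotypes, rising slightly in SpdefKO_EC. Thus 1 of the 9 members rose and 0 fell, against 6.09% of all tested genes that rose, 6.54% that fell and 12.6% that changed. Libraries did not overlap for 1 member, Fut8, which was higher, against 6.94% of tested genes without overlap and higher, 8.38% without overlap and lower and 15.3% in all. At an unadjusted p under 0.05, 4 members were higher and 3 lower (edgeR), and no share over all genes was taken at that rule. With DESeq2 2 members rose and 1 fell, beside 936 and 1000 of the 12915 tested genes. With limma-voom 1 rose and 0 fell, beside 756 and 855 genes. Fut8 had 152, 150.0, 136 and 149 CPM in SpdefKO_EC and 122, 112, 129.8 and 118 CPM in WT_EC. The groups did not overlap, and the rise was 1.22-fold (log2 0.28 ± 0.07, adjusted p = 0.0157). It missed the threshold without libraries 17 to 20, which are 1 of each group (log2 0.27, adjusted p = 0.111). Tsta3 was at 73.5, 72.1, 71.3 and 63.0 CPM in SpdefKO_EC and 67.7, 63.2, 70.1 and 68.2 CPM in WT_EC (log2 0.06 ± 0.07, adjusted p = 0.614), with full overlap. B4galnt2 had 398, 367, 448 and 329 CPM in SpdefKO_EC and 439.8, 477, 435 and 473 CPM in WT_EC. One SpdefKO_EC library reached into the range of WT_EC, and the difference was log2 -0.24 ± 0.09 (adjusted p = 0.0718).

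The other EC differences were also short of the threshold. Fut4 differed by log2 0.26 ± 0.09 (adjusted p = 0.0578), at 106 ± 13.4 CPM in SpdefKO_EC and 88.4 ± 9.07 CPM in WT_EC, and Gmds by 0.20 ± 0.08 (adjusted p = 0.117), at 258 ± 24.0 CPM in SpdefKO_EC and 224 ± 25.7 CPM in WT_EC. For Slc35c1 the difference was 0.16 ± 0.07 (adjusted p = 0.153), for Fut2 0.21 ± 0.11 (adjusted p = 0.222) and for B4galnt3 -0.24 ± 0.11 (adjusted p = 0.164). Fut1 rested on 10, 8, 6 and 2 reads in SpdefKO_EC and 11, 8, 11 and 13 reads in WT_EC, and its difference of log2 -0.73 ± 0.33 had an adjusted p of 0.161. In EC libraries 7 of 11 enteroendocrine, 5 of 6 tested tuft and 3 of 8 goblet cell markers were lower in SpdefKO_EC than in WT_EC. Of 9 tested absorptive colonocyte markers 2 were higher and 2 lower. Among 7 stem and cycling markers 1 was higher and 1 lower. Of the interferon genes, 7 of 10 were higher. Among all tested genes, 6.54% were lower and 6.09% higher in this comparison. Tuft markers summed to 9.17–16.1 CPM in SpdefKO_EC and 37.6–73.7 CPM in WT_EC. The part of these markers and genes in the EC differences was not tested. Single libraries mattered for the calls near the threshold: Fut4 passed without SpdefKO_EC library 8 (log2 0.32, adjusted p = 0.0267) or WT_EC library 14 (log2 0.30, adjusted p = 0.0348), B4galnt2 passed without SpdefKO_EC library 8 (log2 -0.32, adjusted p = 0.0218), and B4galnt3 passed without SpdefKO_EC library 6 (log2 -0.33, adjusted p = 0.0458).

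Whether the genotype difference itself differed between fractions was tested as an interaction, the SpdefKO over WT log2 difference in GC minus that in EC. It was negative and past the threshold for 4 of the 9 members and positive for 0, against 4.65% of all tested genes negative, 4.88% positive and 9.53% in all. With GC and EC libraries of neighbouring numbers as a block, 3330 of 12915 tested genes passed in place of 1231, a larger background. Of these, 1676 were negative and 1654 positive. The same 4 members passed, Tsta3, B4galnt2, Fut4 and Fut8, with interactions of -1.03, -0.74, -0.62 and -0.59. In the fit without the block it was positive for 0 members also at an unadjusted p under 0.05. No share over all genes was taken at that rule. With DESeq2 and with limma-voom the interaction was positive for 0 members and negative for 4. Over all tested genes it was positive for 838 and negative for 671 with DESeq2, and for 607 and 612 with limma-voom. The interaction was -1.03 ± 0.09 for Tsta3 (adjusted p = 1.95e-06), -0.75 ± 0.12 for B4galnt2 (adjusted p = 0.000689), -0.62 ± 0.12 for Fut4 (adjusted p = 0.00289) and -0.59 ± 0.10 for Fut8 (adjusted p = 0.00131). That of Fut4 missed the threshold without libraries 17 to 20 (log2 -0.49, adjusted p = 0.0603). Fut8 thus fell in goblet cells and rose in EC, while Tsta3 fell in goblet cells beside overlapping values in EC. For the other members the interaction did not pass the test: it was 0.71 ± 0.38 for Fut1 (adjusted p = 0.270), -0.24 ± 0.12 for Gmds (adjusted p = 0.217), -0.05 ± 0.16 for B4galnt3 (adjusted p = 0.888), -0.01 ± 0.10 for Slc35c1 (adjusted p = 0.954) and 0.00 ± 0.15 for Fut2 (adjusted p = 0.993), with an estimate near 0 for the last 3.

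Between fractions of WT mice, the fucose genes were higher in goblet cells and the Sd(a) and LacdiNAc enzymes in the other epithelial cells. In WT_GC relative to WT_EC, 7 of the 9 members rose and 2 fell, with no overlap of libraries for any of them. These counts stand against a background in which 31% of all tested genes rose, 30.1% fell and 61.2% changed, so a change between fractions was common. Libraries did not overlap for 59.4% of tested genes, 30.1% higher and 29.3% lower. In WT_GC and WT_EC, Fut1 averaged 5.71 ± 0.704 and 0.770 ± 0.140 CPM, a 7.38-fold difference (log2 2.88 ± 0.23, adjusted p = 2.68e-09). Fut2 averaged 329.5 ± 22.3 CPM in WT_GC and 85.9 ± 6.92 CPM in WT_EC (log2 1.94 ± 0.11, adjusted p = 2.36e-11). The other fucosyltransferases were of like size, with log2 1.91 ± 0.09 for Fut4 (adjusted p = 7.17e-13) and 1.71 ± 0.07 for Fut8 (adjusted p = 3.31e-13). Along the supply route the difference was log2 1.17 ± 0.08 for Gmds (adjusted p = 4.32e-10), 1.48 ± 0.07 for Tsta3 (adjusted p = 5.23e-13) and 0.58 ± 0.07 for Slc35c1 (adjusted p = 1.12e-06). The transporter thus had the smallest rise of the 7. B4galnt2 averaged 235 ± 23.4 CPM in WT_GC and 456 ± 21.6 CPM in WT_EC, 1.94-fold lower in goblet cells (log2 -0.95 ± 0.09, adjusted p = 1.61e-08). B4galnt3 averaged 56.7 ± 5.98 CPM in WT_GC and 149 ± 13.9 CPM in WT_EC (log2 -1.40 ± 0.11, adjusted p = 3.67e-09).

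In SpdefKO mice the same members stood on the same sides, but this comparison and the one in WT enter the genotype comparisons too and share their libraries. In SpdefKO_GC relative to SpdefKO_EC, 7 members rose and 2 fell, against 28% of tested genes that rose, 28.4% that fell and 56.4% that changed. Again no member overlapped, against 48.1% of tested genes without overlap, 23.5% higher and 24.5% lower. Tsta3 averaged 95.6 ± 5.43 CPM in SpdefKO_GC and 70.0 ± 4.71 CPM in SpdefKO_EC (log2 0.45 ± 0.07, adjusted p = 9.48e-06), beside log2 1.48 in WT. Fut4 was at log2 1.29 ± 0.09 (adjusted p = 2.09e-10) and Fut8 at 1.12 ± 0.07 (adjusted p = 1.40e-10), beside 1.91 and 1.71 in WT. B4galnt2 averaged 118 ± 5.17 CPM in SpdefKO_GC and 386 ± 50.4 CPM in SpdefKO_EC, 3.27-fold lower (log2 -1.71 ± 0.09, adjusted p = 6.23e-12). These 4 are the members whose interaction passed the test, which is the same difference read the other way. Fut2 was at log2 1.94 ± 0.11 (adjusted p = 2.80e-11), Gmds at 0.93 ± 0.08 (adjusted p = 1.26e-08), Slc35c1 at 0.57 ± 0.07 (adjusted p = 1.69e-06) and B4galnt3 at -1.45 ± 0.12 (adjusted p = 2.84e-09). Fut1 averaged 5.64 ± 1.24 CPM in SpdefKO_GC and 0.439 ± 0.184 CPM in SpdefKO_EC (log2 3.59 ± 0.25, adjusted p = 4.82e-10).

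**Figure D3:**
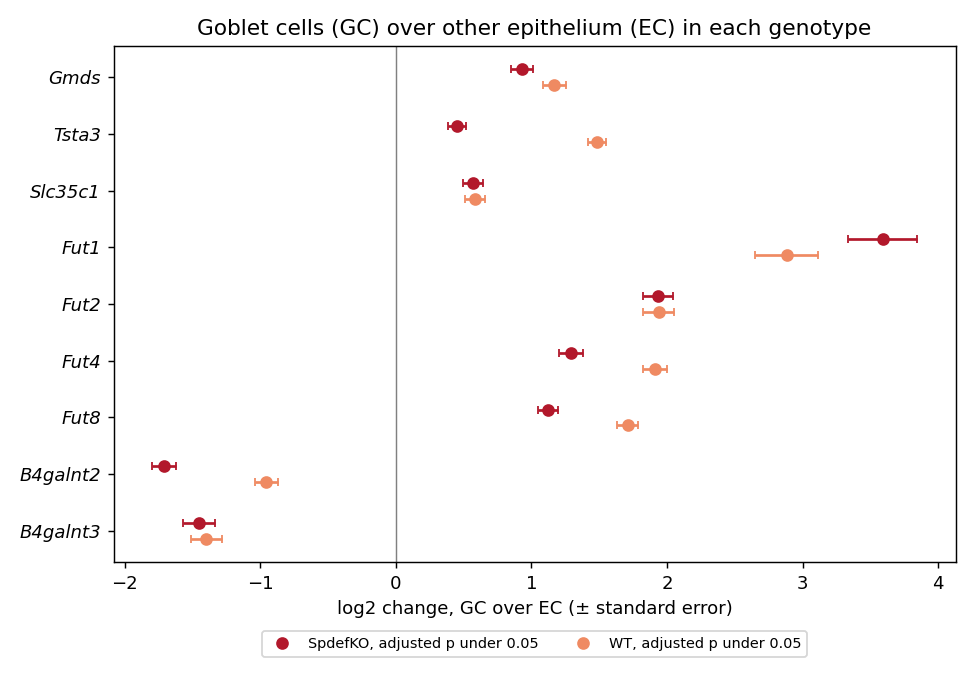
Log2 difference, GC over EC, of each member within SpdefKO and within WT; points are edgeR estimates and bars ± 1 SE. The difference of Tsta3 is 0.45 in SpdefKO and 1.48 in WT, and B4galnt2 and B4galnt3 lie below 0 in both genotypes.

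Levels of different members were set side by side only per kilobase of annotated exon. In SpdefKO_GC the order was Gmds at 147 CPM per kilobase, Fut2 at 70.1, B4galnt2 at 68.5, Fut4 at 63.5, Slc35c1 at 54.1, Fut8 at 40.4, Tsta3 at 32.9, B4galnt3 at 12.2 and Fut1 at 2.02. Libraries overlapped between Fut2 and B4galnt2 and between B4galnt2 and Fut4. In WT_GC the order of CPM per kilobase was Gmds at 151, B4galnt2 at 137, Fut4 at 81.8, Tsta3 at 64.8, Fut2 at 60.7, Fut8 at 49.9, Slc35c1 at 48.9, B4galnt3 at 15.01 and Fut1 at 2.05. Here Gmds overlapped B4galnt2, Tsta3 overlapped Fut2 and Fut8 overlapped Slc35c1. B4galnt2 thus lay among the fucosyltransferases in SpdefKO_GC and beside Gmds, above all of them, in WT_GC.

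In EC, B4galnt2 led the CPM per kilobase in both genotypes, at 224 in SpdefKO_EC and 265 in WT_EC. Gmds came next, at 76.9 in SpdefKO_EC and 66.97 in WT_EC, and Fut1 came last, at 0.158 in SpdefKO_EC and 0.276 in WT_EC. The others lay between 18.3 (Fut2) and 36.5 (Slc35c1) in SpdefKO_EC and between 15.2 (Fut8) and 39.5 (B4galnt3) in WT_EC. Between neighbours, Slc35c1 and B4galnt3, Fut4 and Tsta3, and Fut8 and Fut2 overlapped in SpdefKO_EC, and Tsta3 and Fut4, and Fut2 and Fut8, overlapped in WT_EC. The ratio of B4galnt2 to Fut2 within a library, per kilobase, was 0.925–1.03 in SpdefKO_GC and 1.97–2.51 in WT_GC, against 10.3–13.5 in SpdefKO_EC and 14.5–18.8 in WT_EC. The 4 groups did not overlap in this ratio, which was chosen after the values were seen and is given with no test. Of the 50-base stretches of B4galnt2 exons, 10% also occur in another annotated gene, read on both strands. The share was 4.08% for Fut8, 3.2% for B4galnt3, 2.9% for Fut2, 0.119% for Tsta3 and 0 for the other members. For B4galnt2 and B4galnt3 the sharing genes were Gm11534 and D330020A13Rik, the overlapping genes on the opposite strand named above.

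**Figure D4:**
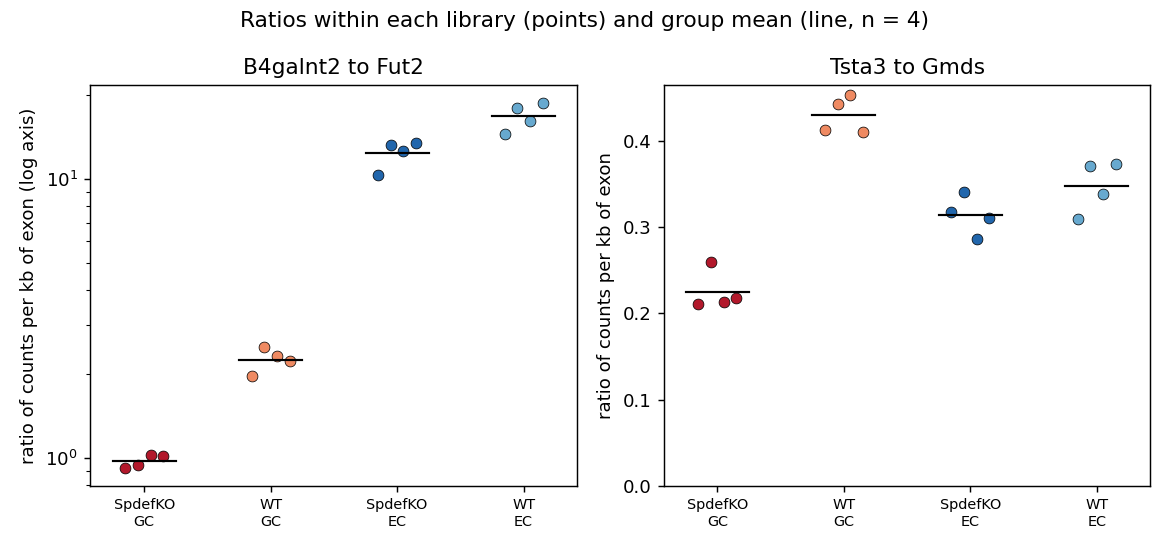
Ratios per kilobase of exon within each library, B4galnt2 to Fut2 (log axis) and Tsta3 to Gmds (linear axis), by group; points are libraries and lines the mean of 4. B4galnt2 to Fut2 averages 0.979 in SpdefKO_GC and 2.26 in WT_GC, against 12.4 in SpdefKO_EC and 16.8 in WT_EC.

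Genes of the same pathways outside the 9 were read as lists. Of 8 other genes that supply GDP-mannose and GDP-fucose, 4 fell in SpdefKO_GC relative to WT_GC and 0 rose, against 11% and 10.4% of all tested genes, with a list median of log2 -0.37. Mpi, which isomerises mannose phosphate, averaged 50.1 ± 6.86 CPM in SpdefKO_GC and 78.9 ± 2.28 CPM in WT_GC (log2 -0.65 ± 0.11, adjusted p = 0.000254). Fpgt, the guanylyltransferase of fucose salvage, averaged 55.8 ± 2.93 CPM in SpdefKO_GC and 87.8 ± 6.28 CPM in WT_GC (log2 -0.65 ± 0.08, adjusted p = 5.68e-06). Gmppb, a subunit of the enzyme that makes GDP-mannose, averaged 98.2 ± 5.42 CPM in SpdefKO_GC and 148 ± 7.79 CPM in WT_GC (log2 -0.60 ± 0.08, adjusted p = 1.85e-05). Pmm2, the phosphomannomutase and the fourth that fell, was at log2 -0.54 ± 0.06 in GC (adjusted p = 3.14e-06) and rose in SpdefKO_EC relative to WT_EC (log2 0.33 ± 0.06, adjusted p = 0.00152). In EC, Pmm2 was the 1 gene of the 8 that changed, near the 12.6% of all tested genes that changed there. The interaction was negative for 4 of the 8, against 4.65% of all tested genes, at -0.87 for Pmm2 (adjusted p = 3.11e-06), -0.71 for Mpi (adjusted p = 0.00558) and -0.58 for Fpgt (adjusted p = 0.00182), with Gmppb the fourth.

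Of 7 other fucosyltransferase genes 5 were tested, and 0 changed between the genotypes in GC with edgeR, DESeq2 or limma-voom. With edgeR 21.4% of all tested genes changed in this comparison. A list of 5 is too short to be set apart from that share. At an unadjusted p under 0.05 (edgeR) 0 of the 5 passed, and no share over all genes was taken at that rule. Fut9, which like Fut4 makes Lewis x type chains, averaged 56.7 ± 4.10 CPM in SpdefKO_GC and 65.5 ± 1.66 CPM in WT_GC (log2 -0.21 ± 0.11, adjusted p = 0.204). In EC Fut9 was the 1 gene of the 5 that changed, against 12.6% of all tested genes. There it averaged 68.9 ± 10.2 CPM in SpdefKO_EC and 87.6 ± 16.3 CPM in WT_EC (log2 -0.35 ± 0.11, adjusted p = 0.0490). Fut9 was also lower in WT_GC than in WT_EC (log2 -0.42 ± 0.11, adjusted p = 0.00338), unlike the 4 fucosyltransferases among the members. Both α-fucosidases, which remove fucose, fell slightly in SpdefKO_GC relative to WT_GC, against 11% of all tested genes that fell. The log2 difference was -0.25 ± 0.07 for Fuca2 (adjusted p = 0.0131) and -0.23 ± 0.06 for Fuca1 (adjusted p = 0.0138). Neither passed the test in EC, where 12.6% of all tested genes did.

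Of 7 other terminal transferases 6 were tested, a list of blood group enzymes and of others that add N-acetylgalactosamine or N-acetylglucosamine. In SpdefKO_GC relative to WT_GC 3 fell and 1 rose, against 11% and 10.4% of all tested genes. A4gnt, which caps gland-type mucin O-glycans with N-acetylglucosamine, averaged 0.282 ± 0.150 CPM in SpdefKO_GC and 41.9 ± 3.69 CPM in WT_GC, a 144-fold fall (log2 -7.17 ± 0.23, adjusted p = 9.43e-12). The size of that fall is uncertain, as A4gnt had 17 reads over all SpdefKO_GC libraries, against 2486 over those of WT_GC. Abo, the A and B transferase that acts on the H antigen, averaged 23.1 ± 4.32 CPM in SpdefKO_GC and 44.6 ± 2.59 CPM in WT_GC (log2 -0.95 ± 0.18, adjusted p = 0.00101). In EC Abo went the other way, at 7.85 ± 2.55 CPM in SpdefKO_EC and 4.14 ± 1.27 CPM in WT_EC (log2 0.89 ± 0.22, adjusted p = 0.0152), and its interaction was -1.84 ± 0.29 (adjusted p = 0.000538). The acceptor of Abo is made by Fut1 and Fut2, which did not pass the test between genotypes in either fraction. B4galnt1, an N-acetylgalactosaminyltransferase of gangliosides, was the gene that rose, at 60.4 ± 4.63 CPM in SpdefKO_GC and 38.8 ± 4.62 CPM in WT_GC (log2 0.64 ± 0.09, adjusted p = 5.14e-05). In EC it averaged 37.9 ± 3.71 CPM in SpdefKO_EC and 45.3 ± 0.315 CPM in WT_EC (log2 -0.25 ± 0.09, adjusted p = 0.0705), and its interaction was 0.89 ± 0.13 (adjusted p = 0.000184), the positive one of the list. Gbgt1, the Forssman synthase, stood under 1 CPM in both GC groups and fell as well (log2 -1.44 ± 0.36, adjusted p = 0.00856).

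Enzymes that make the chains on which the members act were mixed. Of 20 tested synthases of galactose and N-acetylglucosamine chains, 5 fell and 1 rose in SpdefKO_GC relative to WT_GC, against 11% and 10.4% of all tested genes, with a list median of log2 -0.08. B3gnt6, the core 3 synthase of mucin O-glycans, averaged 2.07 ± 0.203 CPM in SpdefKO_GC and 58.9 ± 6.13 CPM in WT_GC (log2 -4.83 ± 0.14, adjusted p = 4.21e-14). B3galt2, a galactosyltransferase, averaged 10.6 ± 1.99 CPM in SpdefKO_GC and 81.6 ± 7.35 CPM in WT_GC (log2 -2.95 ± 0.16, adjusted p = 5.49e-10). Sialyltransferases of the St3gal family add the sialic acid that B4galnt2 requires. Of 4 tested, 1 fell in SpdefKO_GC relative to WT_GC and 0 rose, against 11% and 10.4% of all tested genes. It was St3gal4, at 61.6 ± 18.5 CPM in SpdefKO_GC and 112 ± 4.16 CPM in WT_GC (log2 -0.86 ± 0.19, adjusted p = 0.00401). St3gal4, like B4galnt2, was lower in goblet cells than in EC, where it averaged 369 ± 74.3 CPM in SpdefKO_EC and 374 ± 58.8 CPM in WT_EC (WT_GC relative to WT_EC, log2 -1.74 ± 0.19, adjusted p = 5.20e-07).

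Between the fractions of WT mice, 6 of the 8 supply genes were higher in WT_GC than in WT_EC and 1 was lower, against 31% and 30.1% of all tested genes. Gmppb averaged 148 ± 7.79 CPM in WT_GC and 53.0 ± 3.14 CPM in WT_EC (log2 1.49 ± 0.08, adjusted p = 5.60e-12). In SpdefKO mice 5 of the 8 were higher in SpdefKO_GC than in SpdefKO_EC and 3 lower, against 28% and 28.4% of all tested genes. Abo was higher in goblet cells, at 44.6 ± 2.59 CPM in WT_GC and 4.14 ± 1.27 CPM in WT_EC (log2 3.43 ± 0.21, adjusted p = 1.11e-10), as were its H antigen enzymes Fut1 and Fut2. Of the St3gal list, 3 of 4 were lower in WT_GC than in WT_EC and 1 was higher, against 30.1% and 31% of all tested genes. The higher one was St3gal6, at 328 ± 10.7 CPM in WT_GC and 124 ± 4.25 CPM in WT_EC (log2 1.41 ± 0.10, adjusted p = 6.34e-10). Of the chain synthases, 11 of 20 were higher in WT_GC and 5 lower, against the same 31% and 30.1%. B4galt1 was among the lower ones, at 46.9 ± 5.92 CPM in WT_GC and 239 ± 6.55 CPM in WT_EC (log2 -2.35 ± 0.08, adjusted p = 9.61e-15).

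**Figure D5:**
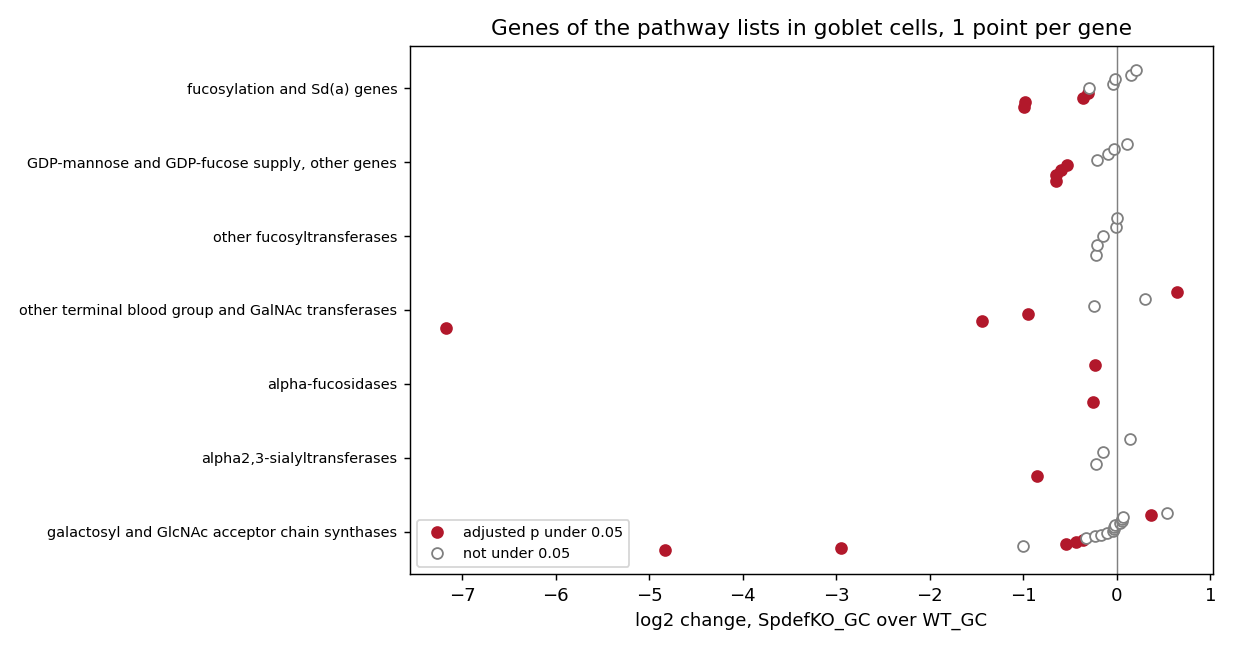
Log2 difference, SpdefKO_GC over WT_GC, of the tested genes of each pathway list, one list per row; each point is a gene, filled where adjusted p was under 0.05. A4gnt (log2 -7.17) and B3gnt6 (log2 -4.83) lie far below the other genes.

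The tested genes most like each member were found as those with the smallest root mean square difference in log2 CPM, centred on the gene's mean, over the 16 libraries. They are given as a description, from 10798 genes. Nearest to Tsta3 was Tpd52 (0.118), at 514 CPM in SpdefKO_GC and 933 in WT_GC, against 359 in SpdefKO_EC and 336 in WT_EC. Nearest to B4galnt2 were Slc44a4 (0.139), Tinagl1 (0.161) and Wfdc2 (0.212). Slc44a4 stood at 187 CPM in SpdefKO_GC and 348 in WT_GC, against 524 in SpdefKO_EC and 589.8 in WT_EC. For Gmds the nearest genes were Surf4 (0.0814), Gorasp2 (0.0907) and Copg1 (0.104), all of the early secretory pathway. For Fut4 they were Kdelr2 (0.142), a receptor of that pathway, and, almost as near, P2rx4 (0.145) and Slc39a8 (0.146). Fut8 was nearest to Il13ra1 (0.0991), Fut2 to Impdh1 (0.159), Fut1 to Selm (0.278) and B4galnt3 to Adck5 (0.118). Slc35c1 varied too little between groups for this measure.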

How the data were processed

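The labels' protocols describe cells of the distal colon sorted by mCherry and TruSeq Stranded Total RNA libraries with Ribo-Zero Gold, read from both ends. The authors deposited whole-number read counts per gene symbol. The submitters' processing notes list mm10 together with STAR 2.4.0f, HTSeq 0.6.1p1, FastQC 0.11.2 and DESeq2 1.14. A deposited normalized table was not used.

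Library sizes were totals over the 21442 gene rows. The 3 entries naming no gene, 47.1–54.7% of all counts, were left out. The quasi-likelihood test of edgeR 4.0.16 in R 4.3.3, with TMM factors, robust dispersion and the default low-count filter by group, was fitted to all 16 libraries in 1 model with a coefficient per group. p-values were Benjamini-Hochberg adjusted over 12915 genes. The standard error is the absolute log2 difference over the square root of F, and is approximate. GC and EC libraries carry neighbouring numbers (3 and 4, 5 and 6, and so on), which the labels do not explain. Their deviations from the group means correlated across genes at 0.125–0.613 in all 8 neighbouring pairs, against -0.4 to 0.245 in the 24 other pairs of a genotype. Centring on group means lowers the other pairs where neighbours correlate, so this contrast is partly built in, and the ranges overlap. The pairing is thus read from the numbers and these data and stays uncertain. A fit with neighbours as a block was added after seeing the data. The main fit treats the libraries as separate. No pair of libraries within a group was as close as sampling noise, at a chi-square of 4.53–34.5 per degree of freedom. Positions and exon lengths came from GENCODE on GRCm38, the build also called mm10. The method was tested on simulated data. The alternatives were other scalings, no filter, DESeq2 1.42.0, limma-voom 3.58.1, the compared groups alone and left-out libraries.

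The members and the gene lists were chosen with earlier results of these data known. All members were named, and of other lists up to 3 called genes per comparison by size of change; Pmm2 in GC and Fut9 were named after their values were seen.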

Additional observations from a re-analysis of the deposited data

Results flagged for a closer look

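In SpdefKO_EC, library 6 stood apart from the other 3 for B4galnt3, at 149 CPM against 117–122 CPM. Chance marks about 1 in 20 such groups, and 36 groups of 4 values were examined. The interaction of genotype and fraction passed the test for 4 members (edgeR, adjusted p under 0.05). It was -1.03 for Tsta3, -0.75 for B4galnt2, -0.62 for Fut4 and -0.59 for Fut8, on the log2 scale. Fut8 fell in SpdefKO_GC relative to WT_GC and rose in SpdefKO_EC relative to WT_EC, without overlap of libraries in either fraction.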

How the results depend on the processing

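The 4 falls in GC (Tsta3, B4galnt2, Fut4, Fut8) and the 9 differences of members between fractions in each genotype kept their direction and side of the threshold under every alternative run. With only the 2 compared groups, Fut2 was higher in SpdefKO_GC (log2 0.22, adjusted p = 0.0374), so 1 member rose in place of 0; members that fell numbered 4–5 over left-out libraries. In EC, members that rose numbered 2 with DESeq2, where Fut4 joined Fut8, 0 without libraries 17 to 20 and 1–2 over left-out libraries. Members that fell in EC numbered 1 with upper-quartile factors, without factors and with DESeq2, each time B4galnt2 (adjusted p = 0.0390, 0.0425 and 0.0462), and 0–1 over left-out libraries. Negative interactions numbered 3 without libraries 17 to 20.

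Estimates near 0 changed sign. The interaction of Fut2 was 0.0196 with RLE, 0.0258 with upper-quartile, 0.0459 without factors, 0.0200 with DESeq2 and 0.0134 with limma-voom. That of Slc35c1 was 0.00806 with RLE, 0.0144 with upper-quartile, 0.0336 without factors and 0.00659 with DESeq2, and that of B4galnt3 was 0.0689 without libraries 17 to 20. Over left-out libraries the interaction ran from -0.0893 to 0.13 for Fut2, -0.0518 to 0.0396 for Slc35c1 and -0.12 to 0.0452 for B4galnt3, and the GC difference from -0.0821 to 0.13 for Fut1 and -0.0641 to 0.0106 for Gmds. The cause was not tested.

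Over all genes, those called in EC were 48.3% higher, against 33.1% with upper-quartile and 32.7% without factors. In SpdefKO_GC against SpdefKO_EC the share was 49.7%, 60.9% and 61.9%, with median shifts of 0.114 and 0.126, and in the interaction it was 51.2%, against 66.1% without factors. Without libraries 17 to 20, 1722 genes were called in GC (2763 with all), 668 in EC (1631) and 457 in the interaction (1231); with only the compared groups 1075 were called in EC. Gmds in WT_GC was at 522 CPM on unscaled totals. In the fit with neighbouring library numbers as a replicate block, added after seeing the data, no member's call changed between fractions or in the interaction, where that of Fut2 was 0.0146; 9226 genes were called in WT (7901 without the block), 8693 in SpdefKO (7285) and 3330 in the interaction (1231). For the genotype comparisons no paired analysis was possible because neighbouring numbers never join the genotypes. Depth limits Fut1 in EC, at 2 to 13 reads per library.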
